A study of Homo sapiens with 8 samples.

Results

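Replication-dependent histone genes encode the canonical H1, H2A, H2B, H3 and H4 proteins, and their RNAs were followed here in KYSE150 cells, an established human line from a squamous carcinoma of the esophagus. Members were the rows of the gene count table whose symbol belongs to the H1-1 to H1-6, H2AC, H2BC, H3C or H4C series. That rule found 66 of 61517 listed genes: 6 of H1, 16 of H2A, 17 of H2B, 13 of H3 and 14 of H4. The study made 8 RNA libraries in 4 groups of 2. The first group was kept in normoxia and the second in hypoxia, both with no further agent named. The third received sodium oxamate, which inhibits lactate dehydrogenase, during hypoxia, and the fourth, also in hypoxia, both sodium oxamate and the agent labelled NALA, taken here to be the sodium lactate of the treatment protocol. All groups were grown in RPMI-1640 with fetal bovine serum and antibiotics. The sources used here give no oxygen level, dose or duration, and no group received lactate without oxamate. Nothing in the labels says that libraries within a group stem from different cultures, so p-values reflect a library-to-library spread that may be purely technical.

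Cells make these proteins mainly while DNA is copied, and the genes lie in clusters with many near-identical copies. A typical transcript of such a gene carries no poly(A) tail. It ends just after a stem-loop, a short hairpin that the stem-loop binding protein SLBP holds, that the U7 snRNP and a cleavage factor cut behind, and that directs decay of the RNA when DNA synthesis stops. Some copies are also transcribed past the hairpin to an ordinary polyadenylation signal, as has been described for cells that leave the cell cycle or differentiate. The libraries were enriched with oligo(dT) beads, so the values below stand for histone RNA that was polyadenylated or captured with the poly(A) fraction, and not for the total histone RNA of the cells.

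The hairpins of the members that the results turn on are shown first, because they mark where a canonical transcript ends. In GENCODE release 29 (GRCh38), 62 members were listed, 53 on chromosome 6 and 9 on chromosome 1, and 26 of them had a transcript model that reached a stem-loop. The pattern searched has 2 arms of 6 bases that enclose a loop of 4 bases. In the lines below both arms of the stem are in capitals, with the loop and up to 5 bases on each side in lower case.
H4C8, chr6:26285131-26285146, minus strand: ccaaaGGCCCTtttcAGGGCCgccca
H4C14, chr1:149833032-149833047, plus strand: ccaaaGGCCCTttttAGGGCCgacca
H3C8, chr6:26270923-26270938, minus strand: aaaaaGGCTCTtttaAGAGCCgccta
H3C6, chr6:26225596-26225611, plus strand: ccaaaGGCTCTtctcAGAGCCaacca
H2AC6, chr6:26124669-26124684, plus strand: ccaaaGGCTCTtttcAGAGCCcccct
H2AC11, chr6:27133515-27133530, plus strand: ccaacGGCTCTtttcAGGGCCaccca
H2BC5, chr6:26158587-26158602, plus strand: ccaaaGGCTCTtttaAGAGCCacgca
All 26 hairpins fell into 6 sequences over the 16 bases of stem and loop. The form of H2AC6 was carried by 13 members, those of H4C8 and H2BC5 by 4 each and that of H4C14 by 3. H3C6 and H2AC11 each had a hairpin that no other member with a modelled stem-loop shared. In 20 of the 26, some transcript model ran at least 100 bases past the hairpin: by 1655 bases in H4C8, 1518 in H3C8, 1862 in H3C6, 1128 in H2AC6 and 1761 in H2AC11. A polyadenylation hexamer, AATAAA or ATTAAA, lay in the last 50 bases of such a model in 15 of them. H2BC5 had a model that ended 39 bases past its hairpin and carried AATAAA there.

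Histone RNA was a small part of every library. Total counts ran from 21845676 to 29406061, and members took 0.0103% and 0.0104% of the counts in the normoxia libraries, 0.0321% and 0.0316% in hypoxia, 0.0131% and 0.0135% under oxamate and 0.00923% and 0.00941% under oxamate plus lactate. The 2 hypoxia libraries thus had the highest shares, with no overlap with any other group. Of the 66 members, 11 had 0 counts in every library, 21 more had at most 10 counts in every library, and 34 exceeded 10 counts somewhere. A total of 30 passed the low-count filter and were tested: 2 of H1, 9 of H2A, 9 of H2B, 4 of H3 and 6 of H4. A member could pass through the group where it was high, so the counts and medians of tested members below describe those genes and say nothing of the other 36. Among members in the annotation, 18 of the 28 tested had a modelled stem-loop against 8 of 34 that were not tested, and the median length of the longest transcript model was 869.5 bases in the tested and 411 in the others.

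Summed by family, levels were highest in hypoxia for all 5 families. In TMM-scaled CPM, a normalised read count relative to library size, the H1 members summed to 13.5 ± 0.190 (SD, n = 2) in normoxia, 69.4 ± 1.43 in hypoxia, 34.2 ± 0.310 under oxamate and 35.1 ± 0.447 under oxamate plus lactate. The H4 members summed to 4.52 ± 0.979, 29.9 ± 1.43, 4.86 ± 1.07 and 7.96 ± 1.46 CPM in the same order. For H1 and H4, then, the hypoxia level stood well above the other 3 groups. Each of these sums rested mainly on a single gene there. H4C8 gave 730 of the 911 H4 counts in the first hypoxia library and 638 of the 821 in the second. Its part was 16 of 103 and 33 of 165 in normoxia and 15 of 106 and 8 of 139 under oxamate. After added lactate it was 120 of 177 and 113 of 170. Without H1-2 the H1 members summed to 0.543 and 0.387 CPM in hypoxia, below 0.658 and 0.688 under oxamate. The H2A members summed to 21.9 ± 0.209, 64.6 ± 1.62, 42.7 ± 0.211 and 20.4 ± 0.633 CPM. The H2B members summed to 47.0 ± 1.41, 113.8 ± 1.97, 62.1 ± 2.10 and 38.2 ± 2.92 CPM. The H3 members summed to 2.89 ± 0.345, 12.5 ± 0.946, 7.53 ± 0.521 and 1.90 ± 0.264 CPM. In H2A, H2B and H3 the group under oxamate alone lay between hypoxia and the group that also received lactate, and no library of these 3 groups overlapped another group. As CPM of the library total that separation was lost for H2B, at 55.2 and 52.9 in normoxia and 53.2 and 55.9 under oxamate. In TMM-scaled CPM without H2BC12, H2B summed to 12.8 and 11.4 in normoxia and 63.4 and 64.0 in hypoxia. That sum was 20.1 and 20.3 under oxamate and 13.4 and 15.2 after added lactate. The lactate group then lay above normoxia, where it lay below with H2BC12 included. In such bulk samples fewer cells in S phase and less histone RNA per cell cannot be told apart.

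**Figure D1:**
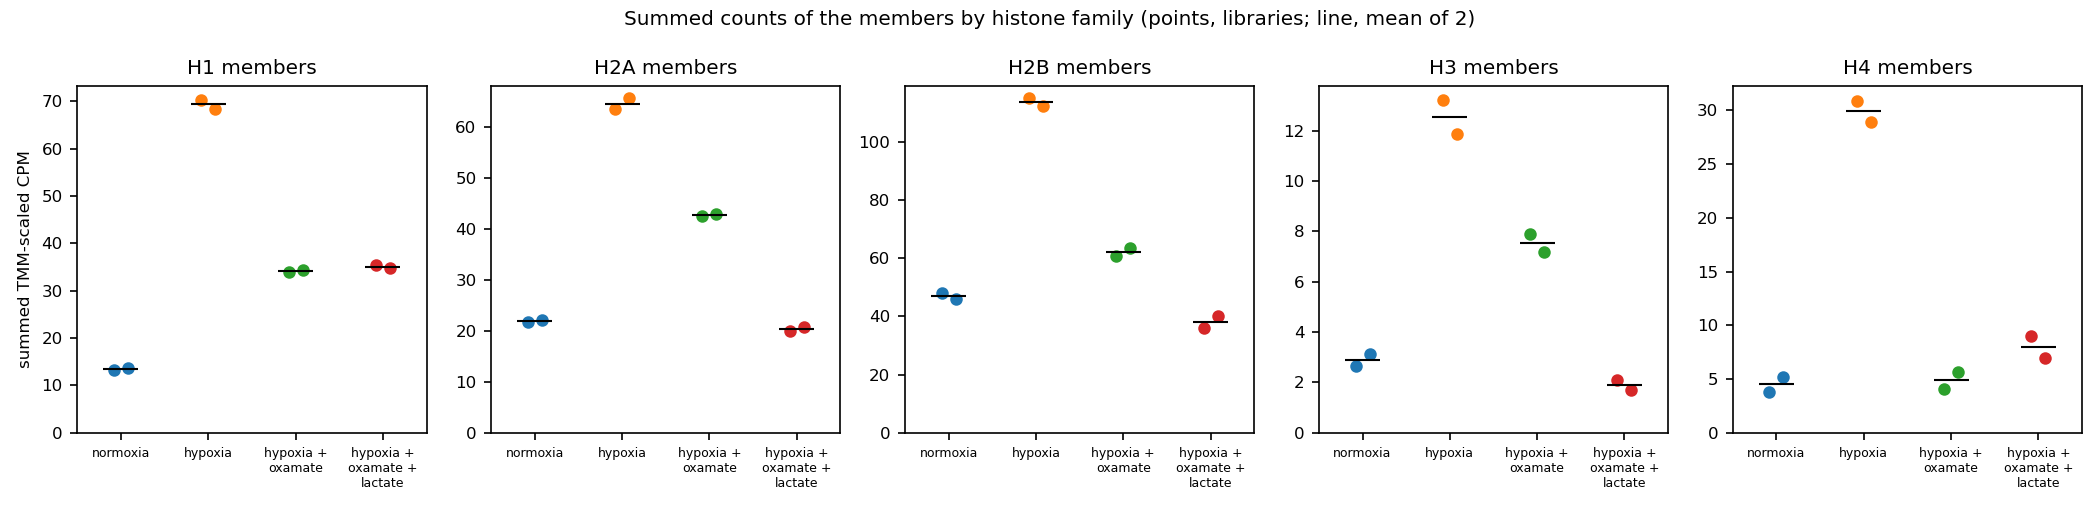
Each panel plots the summed TMM-scaled CPM of one histone family's members (vertical axis, from 0, with its own scale) in the 4 groups (horizontal axis). Points are libraries and lines are means of 2; in every panel both hypoxia points lie above all others, as for H4 at 28.9 and 30.9.

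In hypoxia against normoxia, 22 of the 30 tested members were higher, 0 were lower and 8 did not pass. Every call is at an adjusted p under 0.05 in edgeR's quasi-likelihood test with Benjamini-Hochberg adjustment over 15554 genes. Across all those genes 36.7% were called higher and 36.8% lower, 73.5% in either direction. The median log2 fold change was 1.91 over the tested members and 0.02 over all tested genes. By family, 9 of 9 H2B members rose, 6 of 9 H2A, 3 of 4 H3, 3 of 6 H4 and 1 of 2 H1. H4C8, an H4 gene, had the largest called rise among members with counts in both groups, at 28.1-fold, followed by H3C8 at 16.7-fold. At an unadjusted p under 0.05 the same test also had 22 higher and 0 lower, and DESeq2 called 18 higher and 0 lower. Of the 22 calls, 17 held with each library left out in turn, and those of H2AC13, H2AC15, H2AC18, H2BC7 and H4C11 did not. Without the first hypoxia library, for example, the edgeR adjusted p was 0.0865 for H2AC18, 0.0973 for H2BC7 and 0.105 for H4C11. Without the second normoxia library it was 0.248 for H2AC13, and without the first 0.133 for H2AC15.

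Under oxamate in hypoxia against hypoxia alone, 16 members were lower, 4 were higher and 10 did not pass. Over all tested genes 44.8% were lower and 35.7% higher, 80.5% in either direction. The median log2 fold change was -0.89 over the members and -0.20 over all genes. The members' median was -0.33 with no count filter, -1.51 with the stricter filter, and between -0.92 and -0.59 with 1 library left out. The largest called falls were those of H4C8 (0.0195 of its hypoxia level), H3C6 and H4C15, and the 4 that rose were H2AC20, H2BC7, H3C4 and H3C10. Of these calls, 12 of the 16 decreases and 2 of the 4 increases held with each library left out in turn, and DESeq2 called 2 increases. The falls of H2BC12, H2BC17 and H4C9 were lost without the first oxamate library (edgeR adjusted p = 0.208, 0.112 and 0.0696), that of H2AC15 without the second (0.0564), and the rises of H3C4 and H3C10 without the first hypoxia library (0.160 and 0.0949). This comparison shares the hypoxia libraries with the first.

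With lactate added to oxamate, against oxamate alone, 16 members were lower, 3 were higher and 11 did not pass, where 31.7% of all tested genes were lower and 33.2% higher (64.9% in either direction). The median log2 fold change was -1.25 over the members and -0.02 over all genes. H4C8, H4C14 and H3C6 rose, while H2BC17, with 0 counts left, was at least 3.50-fold lower taking 3 counts per group as the floor. With upper quartile scaling the split over all genes became 4150 higher and 6340 lower, from 5160 and 4927, while that of the members became 3 and 18. The libraries with lactate differed more from each other than those of any other group. Their chi-square of counts per degree of freedom was 4.36, against 1.82 in normoxia, 2.07 in hypoxia and 2.00 under oxamate. The fit shared its estimate of spread between groups, and what this did to calls against the lactate group was not tested. Of the calls, 8 of the 16 decreases and 1 of the 3 increases held with each library left out in turn. Leaving out the second lactate library alone ended the falls of H1-4, H2AC8, H2AC13, H2AC17, H3C4 and H3C8 (edgeR adjusted p from 0.0617 for H3C8 to 0.294 for H1-4). The fall of H2BC21 ended without the first lactate library (0.0715) and that of H4C11 without the second oxamate library (0.0993), and the rises of H4C14 and H3C6 ended without the first oxamate library (0.0940 and 0.186).

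Against hypoxia alone, the group under oxamate plus lactate had 21 members lower, 1 higher (H2AC20) and 8 not passing, where 40.2% of all tested genes were lower and 38.5% higher (78.6% in either direction). The median log2 fold change was -1.82 over the members, or -1.92 with members at 0 in a group set to their bound, and -0.05 over all genes. Of the decreases, 17 held with each library left out in turn, whereas the increase of H2AC20 did not (edgeR adjusted p = 0.215 without the first hypoxia library). Without the second lactate library the falls of H2AC13, H2AC15 and H2AC17 were lost (0.335, 0.178 and 0.205), and without the first hypoxia library that of H2BC7 (0.142). With upper quartile scaling the split over all genes became 4683 higher and 7693 lower, from 5981 and 6246, and that of the members 1 and 22. The group under oxamate plus lactate, like hypoxia, enters other comparisons above, so their values are given side by side and their agreement is not counted.

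**Figure D2:**
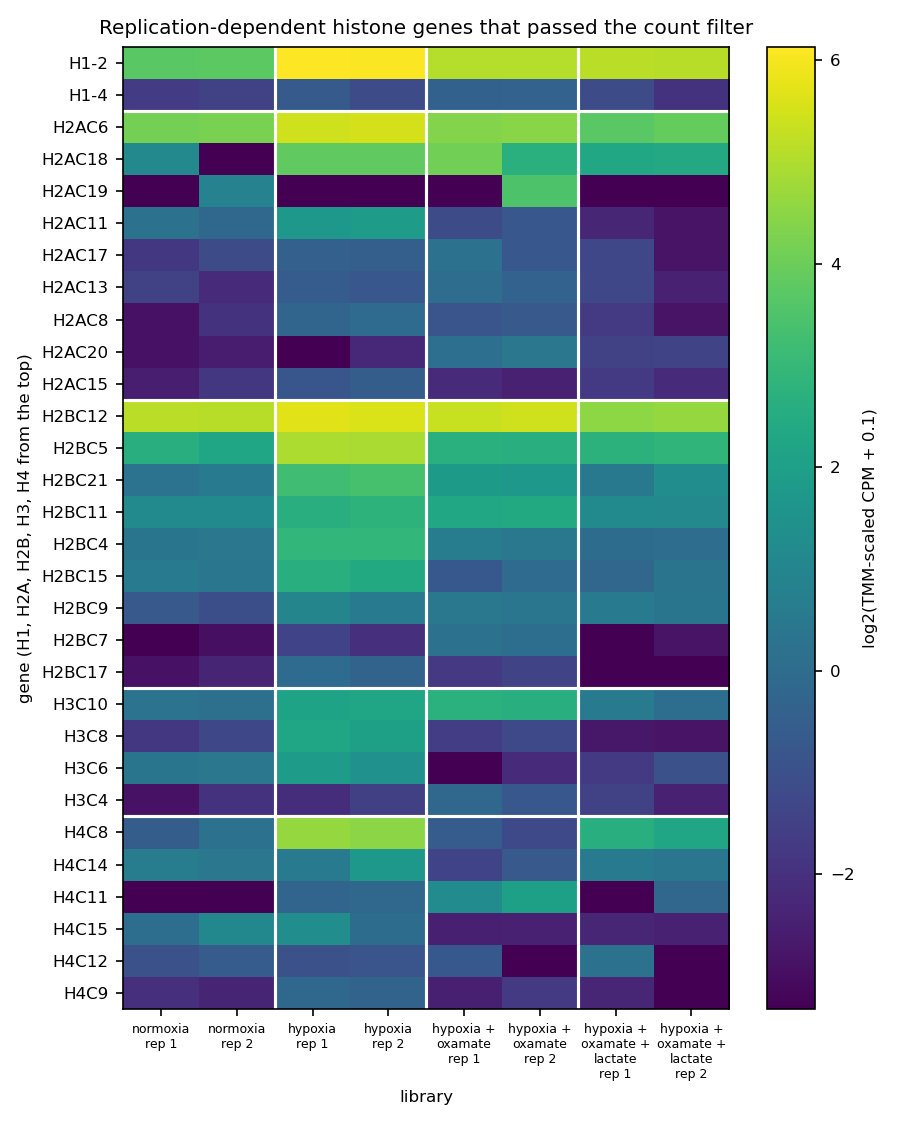
The heat map shows log2(TMM-scaled CPM + 0.1) by colour for the 30 tested members (rows, by family from H1 to H4) in the 8 libraries (columns). Both hypoxia columns are the brightest for H1-2, H2AC6, H2BC5 and H4C8, while H2AC18 and H2AC19 switch between libraries of 1 group.

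Of the H1 linker histone genes, whose proteins bind the DNA between nucleosomes, H1-2 carried almost all counts of its family. Its levels were 13.1 and 13.4 CPM in normoxia, 69.9 and 68.0 in hypoxia, 33.3 and 33.7 under oxamate and 35.1 and 34.6 under oxamate plus lactate. Hypoxia was highest with no overlap, and both oxamate groups stood together between hypoxia and normoxia. The log2 fold change was 2.38 ± 0.06 (SE) in hypoxia against normoxia (edgeR adjusted p = 1.87e-19), -1.04 ± 0.05 under oxamate (edgeR adjusted p = 3.17e-14) and 0.06 ± 0.06 when lactate was added (edgeR adjusted p = 0.425). That last value turned to -0.14 with upper quartile scaling (edgeR adjusted p = 0.0465). Against hypoxia the group under oxamate plus lactate was at -0.98 ± 0.05. No H1-2 transcript model in the annotation reached a stem-loop, and its model is 642 bases long. H1-4 had 6 and 8 counts in normoxia, 16 and 10 in hypoxia, 17 and 17 under oxamate and 7 and 4 after added lactate. Its only called change was a fall with added lactate (-1.40 ± 0.56, edgeR adjusted p = 0.0341), which lost its call without any 1 of 7 libraries (edgeR adjusted p = 0.294 without the second library with lactate). H1-1 and H1-3 had 0 counts throughout, and H1-5 and H1-6, the latter a testis form, had 1 count each.

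Among the H2A genes, whose proteins pair with H2B in the nucleosome core, H2AC6 took the most counts. It stood at 17.8 and 18.6 CPM in normoxia, 43.5 and 45.3 in hypoxia, 20.6 and 21.7 under oxamate and 13.1 and 14.8 under oxamate plus lactate. All 4 groups were separate, with the lactate group below normoxia. Its log2 fold change was 1.28 ± 0.07 in hypoxia (edgeR adjusted p = 1.25e-13), -1.07 ± 0.07 under oxamate (edgeR adjusted p = 2.06e-12), -0.59 ± 0.08 after added lactate (edgeR adjusted p = 1.28e-06) and -1.66 ± 0.07 for oxamate and lactate against hypoxia. H2AC11 followed a steeper course, with 29 and 26 counts in normoxia, 93 and 102 in hypoxia, 9 and 12 under oxamate and 2 and 1 after added lactate. None of its groups overlapped. It rose by a log2 fold change of 1.83 ± 0.30 in hypoxia (edgeR adjusted p = 1.02e-05) and fell by 3.01 ± 0.34 under oxamate (edgeR adjusted p = 4.99e-08). With 3 counts left after lactate, the scaled ratio to oxamate alone was 6.12-fold lower (95% Clopper-Pearson interval 1.83 to 32.1) and that to hypoxia 49.6-fold lower (16.7 to 243).

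H2AC8 had 1 and 5 counts in normoxia, 22 and 25 in hypoxia, 12 and 13 under oxamate and 4 and 1 after added lactate. Its rise in hypoxia (log2 fold change 2.94 ± 0.64, edgeR adjusted p = 3.01e-04) passed, as did its lower level under oxamate plus lactate against hypoxia (-2.78 ± 0.67). The change under oxamate did not (-0.71 ± 0.51, edgeR adjusted p = 0.199), and the fall with added lactate (-2.07) was lost without the second lactate library (edgeR adjusted p = 0.214). H2AC20 had 1 and 2 counts in normoxia, 0 and 3 in hypoxia, 26 and 31 under oxamate and 5 and 7 after added lactate, so that the oxamate libraries were highest and normoxia and hypoxia overlapped. Its log2 fold change under oxamate was 4.32 ± 0.71 (edgeR adjusted p = 9.41e-06), a scaled ratio of 21.8 (95% interval 7.08 to 109). Lactate lowered it by a log2 fold change of -2.04 ± 0.56 (edgeR adjusted p = 0.00313), and it stayed above hypoxia at 2.28 ± 0.90 (edgeR adjusted p = 0.0252), a call lost without the first hypoxia library (edgeR adjusted p = 0.215). In hypoxia against normoxia it was at 0.02 ± 1.19.

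H2AC13, H2AC15 and H2AC17 stayed at or below 28 counts in any library. H2AC13 and H2AC15 were called higher in hypoxia, at log2 fold changes of 1.48 ± 0.59 and 1.94 ± 0.63. Both calls ended when a library was left out, H2AC13 without the second normoxia library (edgeR adjusted p = 0.248) and H2AC15 without the first (edgeR adjusted p = 0.133). H2AC17 and H2AC13 were called lower with added lactate (-2.26 ± 0.68 and -2.12 ± 0.61), calls that ended without the second lactate library (edgeR adjusted p = 0.122 and 0.103). All 393 exon bases of H2AC15 lie within an exon of H2BC15 on the opposite strand, and the counting is not stated to use strand, so its reads and those of H2BC15 cannot be told apart.

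H2AC18 and H2AC19 are near-identical copies, and the counting gave a library's reads to one row, the other or both. H2AC18 had 56 and 0 counts in normoxia, 417 and 403 in hypoxia, 445 and 154 under oxamate and 98 and 127 after added lactate, while H2AC19 had 54 in the second normoxia library, 273 in the second oxamate library and 0 in the other 6. Summed, the copies had 56 and 54 counts in normoxia, 417 and 403 in hypoxia, 445 and 427 under oxamate and 98 and 127 under oxamate plus lactate. The sum was even within each group. It rose by a log2 fold change of 2.91 ± 0.13 in hypoxia (edgeR adjusted p = 3.02e-15), was 0.28 ± 0.09 higher under oxamate (edgeR adjusted p = 0.00785), fell by 1.76 ± 0.11 after added lactate (edgeR adjusted p = 3.29e-12) and was at -1.48 ± 0.11 against hypoxia. For H2AC18 alone the oxamate value was -0.27 ± 0.71, of opposite sign. This sum was chosen after the counts had been seen.

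Of the H2B genes, partners of H2A, H2BC12 took the most counts, with 35.2 and 34.6 CPM in normoxia, 51.8 and 48.5 in hypoxia, 40.5 and 43.3 under oxamate and 22.7 and 25.0 after added lactate, 4 groups that did not overlap. Its log2 fold change was 0.53 ± 0.06 in hypoxia (edgeR adjusted p = 4.49e-08), -0.26 ± 0.06 under oxamate, lost without the first oxamate library (-0.10, edgeR adjusted p = 0.208), and -0.81 ± 0.07 after added lactate (edgeR adjusted p = 4.49e-10). Of the 50-base stretches in its transcript models, 74.1% recur in another gene, most of them in H2BFS, so its reads may be split between rows.

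H2BC5 was at 6.14 and 4.55 CPM in normoxia, 31.2 and 30.7 in hypoxia, 6.35 and 6.11 under oxamate and 6.61 and 7.21 under oxamate plus lactate. The hypoxia libraries stood alone, and the other 6 lay within 4.55 to 7.21 CPM. The log2 fold change was 2.55 ± 0.11 in hypoxia (edgeR adjusted p = 1.75e-15), -2.31 ± 0.11 under oxamate (edgeR adjusted p = 5.60e-15), 0.15 ± 0.13 after added lactate (edgeR adjusted p = 0.321) and -2.16 ± 0.11 for both agents against hypoxia. H2BC4 also stood alone in hypoxia, with 1.19 and 1.23 CPM in normoxia, 7.47 and 7.60 in hypoxia, 1.51 and 1.29 under oxamate and 0.915 and 0.937 after added lactate. It rose by a log2 fold change of 2.63 ± 0.20 in hypoxia (edgeR adjusted p = 8.81e-11) and fell by 2.42 ± 0.20 under oxamate (edgeR adjusted p = 2.67e-10). Its value after added lactate, -0.60 ± 0.27, missed the threshold (edgeR adjusted p = 0.0579) and passed with RLE factors (0.0385), upper quartile scaling (0.0132) and the stricter filter (0.0210). H2BC21 went from 1.12 and 1.42 CPM in normoxia to 9.20 and 10.3 in hypoxia, 3.45 and 3.20 under oxamate and 1.32 and 2.36 after added lactate. It rose by 2.92 ± 0.20 (edgeR adjusted p = 1.68e-11) and fell by 1.55 ± 0.18 under oxamate (edgeR adjusted p = 6.71e-08) on the log2 scale. Its further fall with lactate (-0.82 ± 0.23) was lost without the first lactate library (-0.49, edgeR adjusted p = 0.0715).

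The other 5 tested H2B members had fewer counts than H2BC12. H2BC11 and H2BC15 rose in hypoxia by log2 fold changes of 1.54 ± 0.17 and 2.13 ± 0.24. Under oxamate they parted: H2BC15 fell by 3.03 ± 0.28 (edgeR adjusted p = 1.14e-09), whereas H2BC11 did not pass (-0.31 ± 0.15, edgeR adjusted p = 0.0683, or 0.0282 with upper quartile scaling). With lactate added it was H2BC11 that fell, by 1.29 ± 0.18 (edgeR adjusted p = 1.64e-06), and H2BC15 was at 0.48 ± 0.35 (edgeR adjusted p = 0.246). The difference between these genes was not tested. H2BC7 had 0 and 1 counts in normoxia, 8 and 4 in hypoxia, 28 and 24 under oxamate and 0 and 1 after added lactate, with the oxamate libraries on top. It rose under oxamate by a log2 fold change of 2.29 ± 0.56 (edgeR adjusted p = 8.09e-04), and its single count after lactate gave a scaled ratio 45.5-fold lower (95% interval 7.81 to 1830). Its rise in hypoxia was lost without the first hypoxia library (edgeR adjusted p = 0.0973). H2BC17 had 1 and 3 counts in normoxia, 26 and 20 in hypoxia, 5 and 7 under oxamate and 0 in both lactate libraries, at least 11.7-fold lower than in hypoxia taking 3 counts per group as the floor. H2BC9 rose in hypoxia (1.87 ± 0.35, edgeR adjusted p = 6.76e-05) and passed in no other comparison, with values of -0.39 ± 0.31, 0.03 ± 0.33 and -0.36 ± 0.32.

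**Figure D3:**
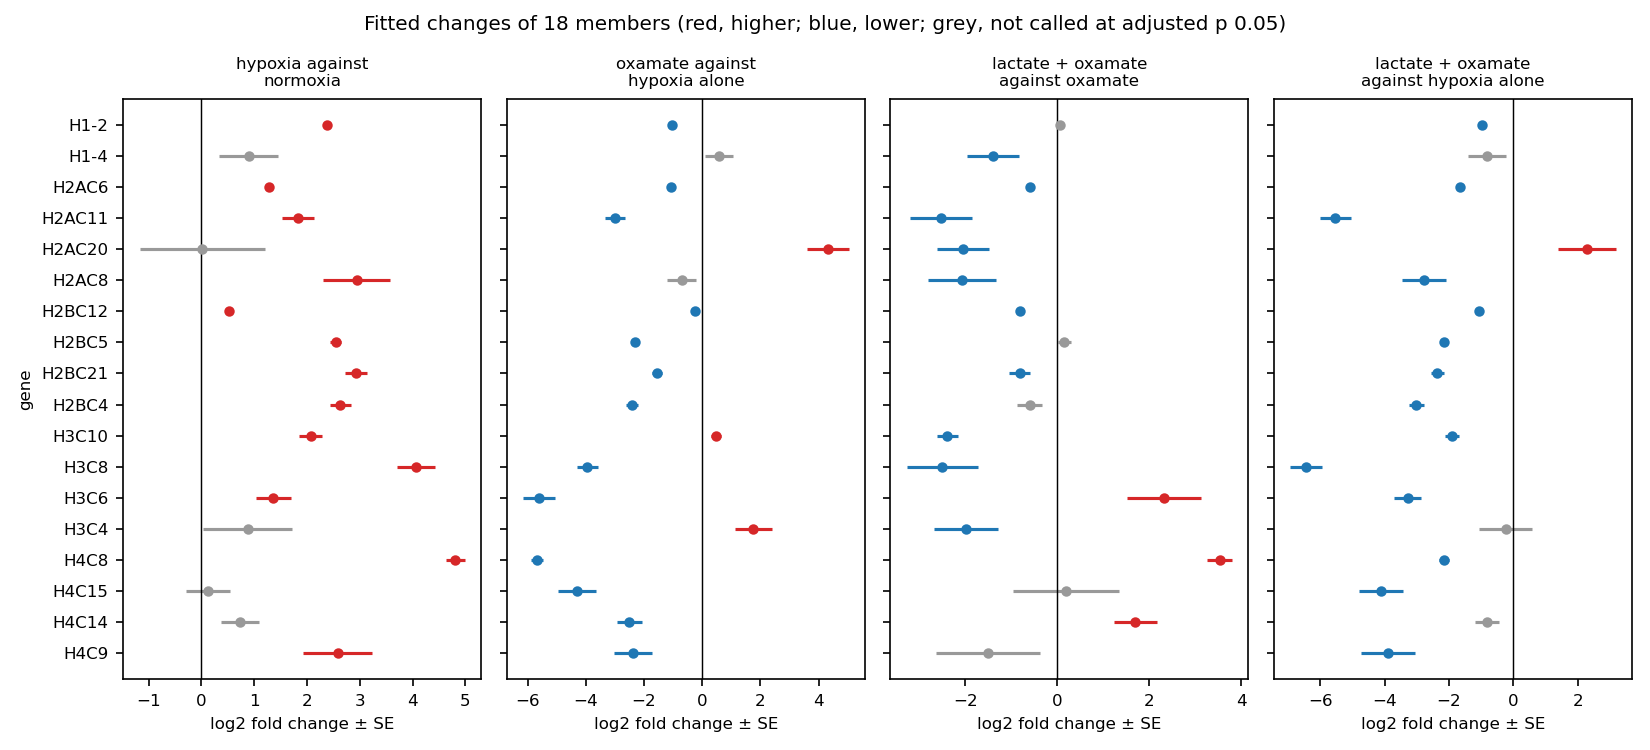
The panels show the fitted log2 fold change (horizontal axis, scaled separately in each panel) with its SE as a bar for 18 members (vertical axis) in the 4 comparisons. Red points are called higher, blue points lower and grey points neither; in the second panel H2AC20, H3C10 and H3C4 are red while H4C8 is at -5.68.

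H3 genes encode the core histone whose tail carries many of the known chromatin marks. In the oxamate group 2 of the 4 tested copies rose and 2 fell, where 35.7% of all tested genes were higher and 44.8% lower. H3C8 had 5 and 10 counts in normoxia, 138 and 114 in hypoxia, 6 and 8 under oxamate and 1 and 1 after added lactate. Hypoxia stood alone at the top. Its log2 fold change was 4.07 ± 0.35 in hypoxia (edgeR adjusted p = 6.77e-10) and -3.95 ± 0.36 under oxamate (edgeR adjusted p = 1.05e-09). After lactate its 2 remaining counts gave a scaled ratio 96.2-fold lower than in hypoxia (95% interval 26.4 to 799), and the fall against oxamate alone (-2.50 ± 0.78) was lost without the second lactate library (edgeR adjusted p = 0.0617). H3C10 differed in the oxamate group. It was at 1.12 and 1.01 CPM in normoxia, 4.38 and 4.58 in hypoxia, 6.47 and 5.95 under oxamate and 1.42 and 0.978 after added lactate, so oxamate was highest and the lactate group overlapped normoxia. It rose by a log2 fold change of 2.07 ± 0.22 in hypoxia (edgeR adjusted p = 1.52e-08) and fell by 2.39 ± 0.22 after added lactate (edgeR adjusted p = 2.50e-09). Its further rise under oxamate was small (0.47 ± 0.18, edgeR adjusted p = 0.0192) and was lost without either hypoxia library (0.0949 and 0.0591) and in DESeq2 (adjusted p = 0.0628).

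H3C6 had 32 and 39 counts in normoxia, 105 and 76 in hypoxia, 0 and 3 under oxamate and 4 and 10 under oxamate plus lactate. Both oxamate groups lay below normoxia. It rose in hypoxia by a log2 fold change of 1.36 ± 0.33 (edgeR adjusted p = 8.69e-04) and was 52.7-fold lower under oxamate by scaled counts (95% interval 17.7 to 258; edgeR adjusted p = 4.01e-09). The partial return with lactate, a scaled ratio of 5.34 (95% interval 1.49 to 28.96), passed (edgeR adjusted p = 0.0161) but not without the first oxamate library (0.186) or the second lactate library (0.170). H3C4 had 1 and 5 counts in normoxia, 4 and 7 in hypoxia, 21 and 12 under oxamate and 5 and 2 after added lactate. It was called higher under oxamate (1.75 ± 0.63, edgeR adjusted p = 0.0156) and lower after added lactate (-1.99 ± 0.70), calls that ended without the first hypoxia library (edgeR adjusted p = 0.160) and the second lactate library (edgeR adjusted p = 0.199). All of its 411 exon bases lie in exons of AL031777.3, a row of the same strand with 10 and 12 counts in normoxia, 53 and 51 in hypoxia, 4 and 22 under oxamate and 7 and 12 with lactate, so the assignment of reads between them is uncertain.

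H4 genes encode the most conserved core histone. H4C8 was at 0.595 and 1.04 CPM in normoxia (16 and 33 counts), 24.8 and 22.5 in hypoxia (730 and 638 counts), 0.581 and 0.324 under oxamate (15 and 8 counts) and 6.10 and 4.60 under oxamate plus lactate (120 and 113 counts). Hypoxia was far above all others, both oxamate libraries lay below both normoxia libraries, and the lactate group stood between. Its log2 fold change was 4.81 ± 0.18 in hypoxia (edgeR adjusted p = 2.90e-15), -5.68 ± 0.21 under oxamate (edgeR adjusted p = 1.17e-15), 3.53 ± 0.27 after added lactate (edgeR adjusted p = 3.45e-10) and -2.16 ± 0.14 for both agents against hypoxia (edgeR adjusted p = 1.83e-11). These calls held under every alternative run. No 50-base stretch of H4C8 recurs in another gene of GENCODE 29. The annotation behind the counts is not stated, and that release lacks 4 members. Whether reads of H4C8 were split in the counts was not tested. H4C9 had 4 and 3 counts in normoxia, 23 and 20 in hypoxia, 2 and 5 under oxamate and 2 and 0 after added lactate. It rose by a log2 fold change of 2.58 ± 0.65 in hypoxia (edgeR adjusted p = 0.00128), and its fall under oxamate (-2.38 ± 0.66) was lost without the first oxamate library (edgeR adjusted p = 0.0696).

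H4C14 and H4C15 lie in opposite orientation in the chromosome 1 cluster and share 97.5% and 97.2% of their 50-base stretches. H4C14 had 41 and 39 counts in normoxia, 40 and 91 in hypoxia, 7 and 13 under oxamate and 27 and 30 after added lactate, and H4C15 had 26 and 64, 70 and 26, 2 and 2, and 2 and 2 in the same order. The split between them changed from library to library. Summed after the counts had been seen, they had 67 and 103 counts in normoxia, 110 and 117 in hypoxia, 9 and 15 under oxamate and 29 and 32 under oxamate plus lactate. The sum did not pass in hypoxia against normoxia (0.44 ± 0.22, edgeR adjusted p = 0.0736), fell by a log2 fold change of 3.03 ± 0.29 under oxamate (edgeR adjusted p = 2.75e-09), rose by 1.53 ± 0.34 after added lactate (edgeR adjusted p = 4.58e-04) and stayed below hypoxia at -1.50 ± 0.25 (edgeR adjusted p = 1.18e-05). For single rows, the rise of H4C14 with lactate (1.69 ± 0.47) was lost without the first oxamate library (edgeR adjusted p = 0.0940). H4C11 and H4C12 form another such pair: H4C11 had 0 and 0 counts in normoxia, 22 and 23 in hypoxia, 59 and 101 under oxamate and 0 and 19 after added lactate, and H4C12 had 11 and 18, 12 and 13, 13 and 0, and 21 and 0. H4C11 was at least 15.2-fold higher in hypoxia than in normoxia taking 3 counts per group as the floor, a call lost without any 1 of the 4 normoxia and hypoxia libraries (largest edgeR adjusted p = 0.105). That bound depends on how reads were split between the copies. Summed after the counts had been seen, the pair had 11 and 18 counts in normoxia, 34 and 36 in hypoxia, 72 and 101 under oxamate and 21 and 19 after added lactate. The sum rose by a log2 fold change of 1.29 ± 0.36 in hypoxia (2.44-fold, edgeR adjusted p = 0.00294) and by 1.501 ± 0.29 under oxamate (edgeR adjusted p = 7.18e-05), and fell by 1.91 ± 0.32 after added lactate (edgeR adjusted p = 1.36e-05). Against hypoxia the group with both agents was at -0.41 ± 0.34 (edgeR adjusted p = 0.281). H4C12 alone passed in no comparison.

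Promoters are shown for members that moved strongly and for a pair that shares its upstream region. RefSeq (GRCh38.p14) gave 250 bases before to 50 bases after the start of 61 of the 66 members, all but H2AC12, H3C11, H3C12, H4C1 and H4C3. Windows are printed 5′ to 3′ with matches to some motifs, on either strand, in capitals. In H4C8 only GGTCC, the core of the H4 promoter element, is marked. In H2BC4 and H2BC21 only the TATA box, the CCAAT box and the octamer, spelled out after the sequences, are marked, and the GGTCC matches of H2BC21 are left in lower case.
H4C8, chr6:26285485-26285784, minus strand: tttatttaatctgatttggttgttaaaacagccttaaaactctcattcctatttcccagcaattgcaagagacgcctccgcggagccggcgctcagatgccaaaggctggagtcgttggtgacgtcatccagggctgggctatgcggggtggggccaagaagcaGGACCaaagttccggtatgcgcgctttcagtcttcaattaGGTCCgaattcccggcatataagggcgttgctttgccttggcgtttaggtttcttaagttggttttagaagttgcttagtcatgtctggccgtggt
H2BC4, chr6:26123877-26124176, minus strand: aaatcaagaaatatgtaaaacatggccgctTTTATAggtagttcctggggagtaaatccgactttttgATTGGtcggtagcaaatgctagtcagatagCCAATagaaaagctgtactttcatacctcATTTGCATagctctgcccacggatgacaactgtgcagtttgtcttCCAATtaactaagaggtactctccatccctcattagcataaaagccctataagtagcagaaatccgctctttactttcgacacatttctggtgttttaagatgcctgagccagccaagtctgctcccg
H2BC21, chr1:149886633-149886932, minus strand: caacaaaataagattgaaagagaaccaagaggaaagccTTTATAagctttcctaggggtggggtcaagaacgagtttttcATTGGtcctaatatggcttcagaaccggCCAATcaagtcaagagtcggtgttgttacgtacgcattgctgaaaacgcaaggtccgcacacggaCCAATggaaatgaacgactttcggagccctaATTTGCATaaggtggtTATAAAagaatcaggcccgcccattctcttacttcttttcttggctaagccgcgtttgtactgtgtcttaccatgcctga
Each motif was searched on both strands, and a window counted once per motif even where motifs shared letters. TATAAA was found in 67.2% of the members' windows against 11.95% of all 27305 windows, CCAAT in 85.2% against 35.7%, and ATTTGCAT in 42.6% against 1.80%. The octamer was in 14 of 17 H2B and 11 of 15 H2A windows, 1 of 11 H3 and none of the 6 H1 or 12 H4 windows. GGTCC was in 11 of 12 H4 windows against 46.1% of all, and CCAAT in 3 of 12 H4 windows but every window of the other families. ACGTG, 1 form of the core of the hypoxia response element, was in 14.8% of the members' windows against 21.6% of all windows. Those members were H2AC11, H2AC15, H2AC16, H2AC17, H2BC11, H2BC15, H2BC17, H4C11 and H4C12. No other form of that core was searched. A match is a description of these letters and not of binding.

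Both genes of a head-to-head pair can be compared across the same libraries. In RefSeq 12 pairs of members started within 1000 bases of each other on opposite strands, and 5 of the H2A and H2B pairs had both genes tested. H2BC4 and H2AC6 start 246 bases apart, so the H2BC4 window above also spans the H2AC6 start, and both rose in hypoxia (2.63 ± 0.20 and 1.28 ± 0.07) and fell under oxamate (-2.42 ± 0.20 and -1.07 ± 0.07). H2BC21 and H2AC20 start 236 bases apart and went different ways, with H2BC21 higher in hypoxia (2.92 ± 0.20) where H2AC20 was at 0.02 ± 1.19, and H2BC21 lower under oxamate (-1.55 ± 0.18) where H2AC20 was higher (4.32 ± 0.71). H2BC11 and H2AC11, 248 bases apart, had log2 fold changes under oxamate of -0.31 ± 0.15 and -3.01 ± 0.34. H2BC17 and H2AC17, 240 bases apart, had -1.72 ± 0.56 and 0.30 ± 0.52. H2BC15 and H2AC15 start 194 bases apart and overlap as described. Of the stretches searched for shared sequence, 30.5% of those in H2AC20 recur in HIST2H2AA3. For H2AC17, 88.0% of the exon bases lie in exons of H3C12 on the same strand. Reads of H2AC20 and H2AC17 may therefore be split between rows, and differences between the genes of a pair were not tested.

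**Figure D4:**
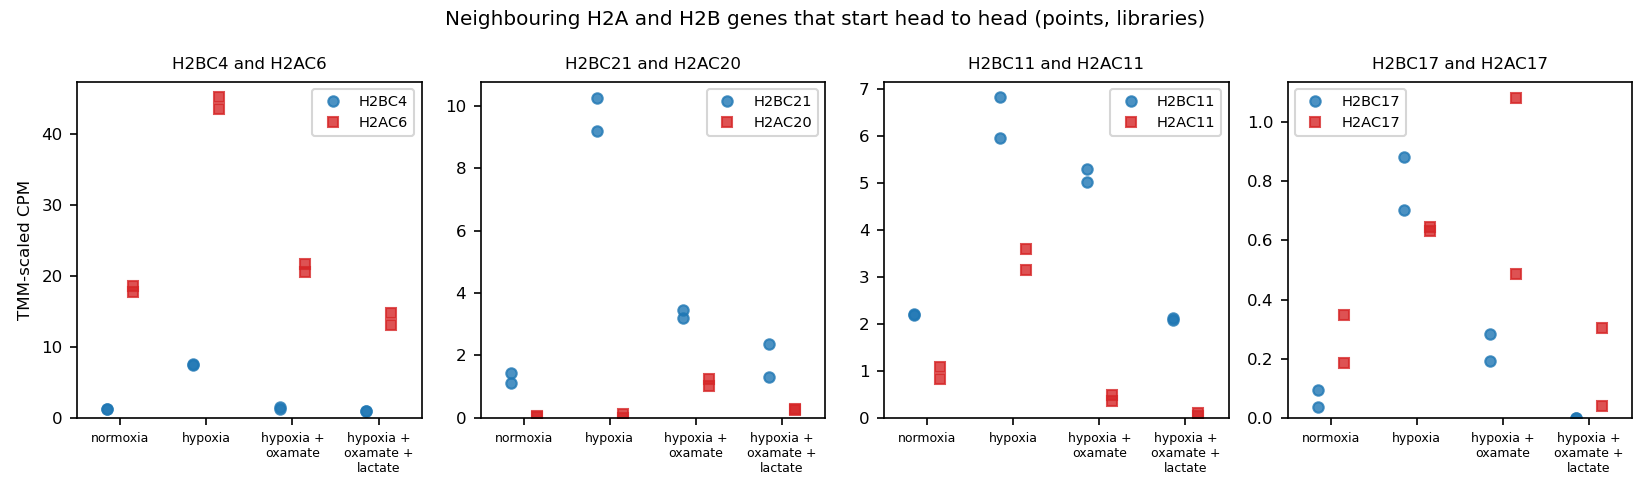
Each panel plots TMM-scaled CPM (vertical axis, from 0, own scale) of an H2B gene (circles) and its head-to-head H2A neighbour (squares) by group, 1 point per library. H2BC4 and H2AC6 both peak in hypoxia, whereas H2AC20 is highest under oxamate at 1.01 and 1.25 CPM; levels of different genes are not per length and are not compared.

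The 36 members that were not tested had few reads. Those with 0 counts in all libraries were H1-1, H1-3, H2AC1, H2BC1, H2BC3, H3C3, H3C13, H3C14, H4C6, H4C7 and H4C13, of which H2AC1 and H2BC1 are testis forms. In each library a floor of 3 counts corresponds to between 0.102 and 0.137 CPM of the total, so levels under that were not detectable at this depth, and intervals and floors cover counting error only. Of the untested members, H2AC7, H2BC6, H2BC13 and H2BC18 exceeded 10 counts in a library. H2BC18 had 1 count in each normoxia and hypoxia library, 9 and 12 under oxamate and 2 and 3 after added lactate. H2BC6 had 19 counts in the second hypoxia library and at most 4 in any other. These rows carry no test.

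Histone genes outside the rule, mostly expressed also outside S phase and with ordinary poly(A) tails, give a comparison in the same libraries. Of the 15 listed, 11 were tested, and 4 rose and 5 fell in hypoxia. One of the rises, that of the centromere histone CENPA (0.17), was lost in DESeq2 (adjusted p = 0.200), which called 3 higher, and without any 1 of the 4 normoxia and hypoxia libraries (edgeR adjusted p from 0.0607 to 0.218). H1-10, a linker histone, and H2AJ, an H2A form linked to senescence, rose by 1.70 ± 0.11 and 1.46 ± 0.08 in hypoxia and fell under oxamate by 2.78 ± 0.13 and 0.84 ± 0.08. H2AX, the damage-signalling variant that can be made from both a stem-loop and a poly(A) transcript, fell in both comparisons by 1.22 ± 0.07 and 2.17 ± 0.09. H2AZ1, H2AZ2, MACROH2A1 and H3-3B fell in hypoxia and rose under oxamate, as for MACROH2A1 at -0.61 and 1.56. Under oxamate 4 of the 11 rose and 6 fell, after added lactate 2 rose and 5 fell, and for both agents against hypoxia 2 rose and 8 fell. Median log2 fold changes were -0.14, -0.56, -0.16 and -0.68 in the 4 comparisons. Over all tested genes 36.7%, 35.7%, 33.2% and 38.5% were higher and 36.8%, 44.8%, 31.7% and 40.2% lower. Several of these counts are near those shares, which also stand beside every list below.

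The machinery that forms the hairpin end was lower in hypoxia, where the histone rows were higher. Of 17 genes for stem-loop processing, 16 fell, 0 rose and 1 (LSM11) did not pass in edgeR, with a median of -0.63; at an unadjusted p under 0.05 the counts were also 16 and 0. SLBP, which binds the hairpin, was at 88.2 and 90.1 CPM in normoxia, 49.6 and 52.2 in hypoxia, 115 and 112 under oxamate and 82.4 and 86.4 after added lactate. Hypoxia was its lowest group and oxamate its highest. The log2 fold changes were -0.81 ± 0.04, 1.15 ± 0.04, -0.42 ± 0.04 and, for both agents against hypoxia, 0.73 ± 0.05 (edgeR adjusted p between 2.62e-16 and 1.48e-08). LSM10, a subunit of the U7 snRNP ring, went from 25.2 and 25.0 CPM in normoxia to 4.14 and 4.54 in hypoxia, 34.4 and 33.9 under oxamate and 29.1 and 29.6 after added lactate. Its fall in hypoxia of 2.53 ± 0.09 and its rise under oxamate of 2.98 ± 0.09 were the largest values of the list. LSM11, its partner in that ring, was at 0.14 ± 0.08 in hypoxia (edgeR adjusted p = 0.11), -0.93 ± 0.09 under oxamate and 1.14 ± 0.09 with lactate. CPSF3, the nuclease that cuts behind the hairpin and also at poly(A) sites, and its partner CPSF2 fell in hypoxia by 0.73 ± 0.05 and 1.31 ± 0.05 and rose under oxamate by 1.18 ± 0.05 and 1.56 ± 0.05. The list as a whole had 15 higher and 1 lower under oxamate (median 1.15), 5 higher and 12 lower after added lactate (median -0.26) and 15 higher and 2 lower for both agents against hypoxia (median 0.62). With upper quartile scaling the third split was 1 higher and 12 lower, and ZNF473, another U7-associated protein, went from 0.18 to -0.01.

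General cleavage and polyadenylation genes, such as PAPOLA and PABPN1, showed 1 higher and 13 lower of 16 in hypoxia (median -0.40), 7 and 7 under oxamate (median -0.04, 0.04 with RLE factors), 9 and 6 after added lactate (median 0.69) and 9 and 5 for both agents against hypoxia (median 0.23; 7 and 8 with upper quartile scaling, median -0.03). PAPOLA, the poly(A) polymerase, had log2 fold changes of -0.19, 0.28, -0.38 and -0.10.

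Genes that act in histone gene transcription mostly fell in hypoxia and changed without a common direction in the other comparisons. Of 12, 3 rose and 9 fell in hypoxia (median -0.65), 5 rose and 5 fell under oxamate (median 0.05, -0.02 with upper quartile scaling), 6 rose and 5 fell after added lactate (median 0.06, -0.13 with upper quartile scaling) and 5 rose and 4 fell for both agents against hypoxia (median -0.16; 4 and 7 with upper quartile scaling, median -0.42). NPAT, the coactivator that gathers on histone clusters, was at 28.5 and 28.1 CPM in normoxia, 23.0 and 22.4 in hypoxia, 6.00 and 6.19 under oxamate and 13.4 and 12.8 after added lactate, with the oxamate libraries lowest and no overlap. It fell by a log2 fold change of 0.32 ± 0.07 in hypoxia and 1.90 ± 0.09 under oxamate and rose by 1.10 ± 0.10 with lactate. CASP8AP2, another protein of the histone locus body, had -0.83 ± 0.08, -0.56 ± 0.09 and 0.50 ± 0.09. HINFP, which binds H4 promoters, rose by 0.77 in hypoxia. CCNE2, a cyclin that drives NPAT phosphorylation, fell by 2.51 ± 0.11 in hypoxia and by 1.39 ± 0.16 under oxamate, while CCNE1 fell by 1.64 and then rose by 1.34.

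S phase genes, chosen to follow DNA replication, also fell in hypoxia. Of 23, 3 rose and 20 fell (median -0.97), then 21 rose and 1 fell under oxamate (median 0.93), 0 rose and 23 fell after added lactate (median -0.89) and 9 rose and 11 fell for both agents against hypoxia (median -0.06; 4 and 15 with upper quartile scaling, median -0.32). PCNA, the sliding clamp of the replication fork, was at 263 and 267 CPM in normoxia, 103 and 112 in hypoxia, 132 and 131 under oxamate and 39.7 and 41.9 after added lactate. MCM2, a subunit of the replicative helicase, was at 244 and 246, 124 and 125, 397 and 386, and 171 and 180 CPM. Hypoxia thus had the highest summed level of every histone family and the lowest MCM2, while PCNA was lowest under oxamate plus lactate. The part of S phase share in the histone values was not tested. In the same order of comparisons, 18 histone chaperone genes had 3, 13, 4 and 6 higher and 14, 5, 14 and 9 lower (medians -0.59, 0.55, -0.44 and -0.11). ASF1B and NASP, which carry newly made H3 and H4, both fell in hypoxia, NASP by 0.66, and rose under oxamate by 1.43 and 1.19. Of 17 genes for histone mRNA decay, 5, 10, 7 and 14 were higher and 11, 6, 7 and 1 lower (medians -0.24, 0.30, -0.03 and 0.37). With upper quartile scaling the decay list had 7 higher and 2 lower for both agents against hypoxia (median 0.11), and 6 and 10 after added lactate (median -0.22). UPF1, a helicase that starts this decay, fell by 1.05 ± 0.04 in hypoxia and rose by 1.25 ± 0.04 under oxamate, whereas XRN1, the exonuclease that degrades decapped RNA, rose by 1.13 ± 0.08 and fell by 1.44 ± 0.08.

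**Figure D5:**
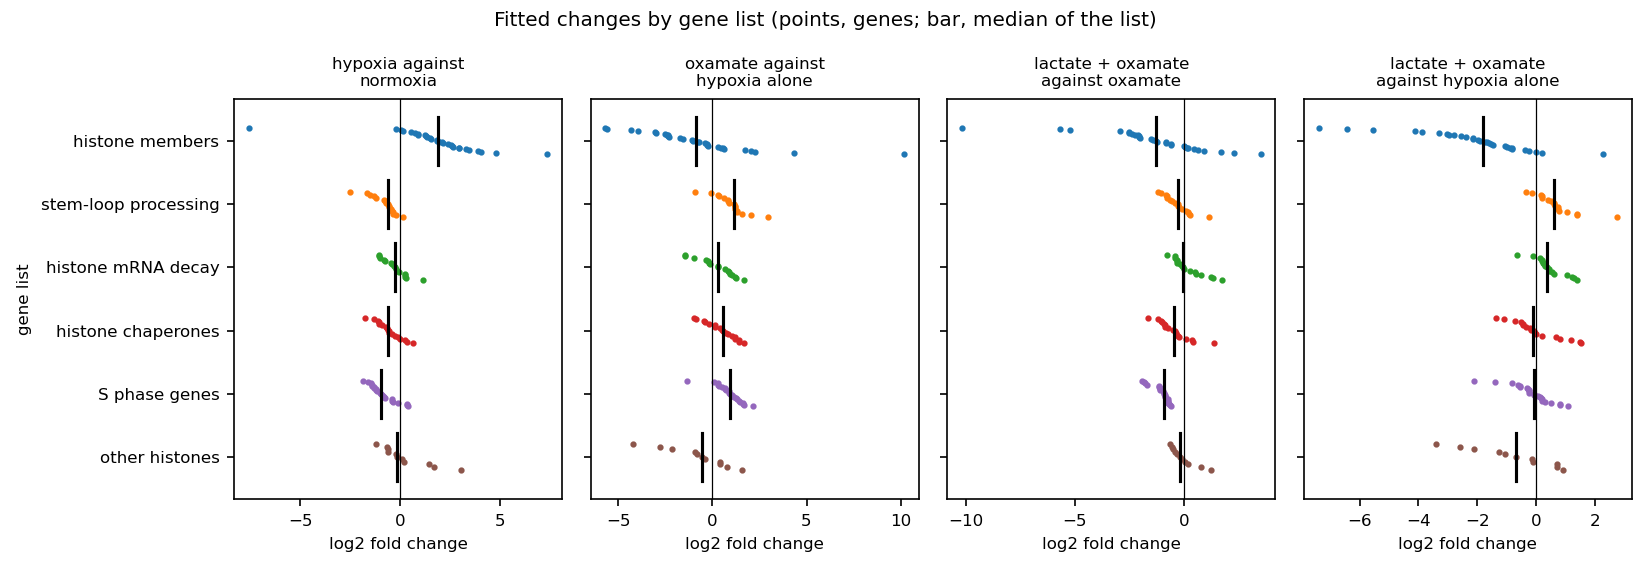
Each point is a tested gene's fitted log2 fold change (horizontal axis, scaled separately in each of the 4 comparisons) within a gene list (vertical axis), and bars are list medians. The histone members' median is 1.91 in hypoxia against normoxia where the stem-loop processing list is at -0.63 and the S phase list at -0.97; extreme points are members at or near 0 counts in a group.

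The libraries kept the squamous identity of the line: all 10 squamous markers were above 0 in every library and summed to between 3600 and 4925 CPM of the library totals. In the 4 comparisons 5, 4, 3 and 5 of these 10 were higher and 4, 5, 6 and 4 lower. The sum over leukocyte markers was 48.6 and 53.4 CPM in normoxia, 143 and 137 in hypoxia, 86.5 and 87.2 under oxamate and 99.2 and 101 under oxamate plus lactate, most of it CD68, a lysosomal protein that many cell types make, while PTPRC was at 0 in 7 of the 8 libraries. Of the 8, 4 were tested, with 4, 0, 2 and 0 higher and 0, 3, 1 and 4 lower. The sum over fibroblast and endothelial markers was 4.36 and 4.33 CPM in normoxia, 11.1 and 10.7 in hypoxia, 1.36 and 2.31 under oxamate and 1.33 and 1.51 after added lactate, with 3 of 8 tested and 1, 0, 0 and 0 higher and 0, 2, 0 and 3 lower. Both sums were highest in hypoxia, as the histone family sums were, and their part in the histone results was not tested. Testis germ cell markers summed to at most 0.229 CPM in any library, and none of the 6 was tested.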

How the data were processed

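The deposited table gave whole-number counts per gene for 8 KYSE150 libraries. Per the submitters' processing notes the authors used FastQC 0.11.9, STAR 2.7.8a and RSEM 1.3.3 with the hg38/GRCh38 build. The sources used here state no role for each tool, no annotation release and no use of strand, so the counts may be rounded estimates. Near-identical copies can then be split between rows.

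Library totals were 21845676 to 29406061 counts. Genes were filtered with filterByExpr (minimum count 10), scaled by TMM and tested in 1 fit over the 4 groups with edgeR 4.0.16 (robust quasi-likelihood test, R 4.3.3) and Benjamini-Hochberg adjustment over 15554 genes. The SE was derived from the F statistic. DESeq2 1.42.0, RLE and upper quartile scaling, other filters, a replicate block, 2-group fits and omission of single libraries were the alternatives. The test was checked on simulated data.

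Stem-loops, shared 50-base stretches and exon overlaps came from GENCODE 29 (GRCh38), and promoters from RefSeq (GRCh38.p14). Named members were, in each family, the one with the highest mean CPM and up to 3 more with the smallest adjusted p in any comparison (18 in all). The other members are given so that each is accounted for. Other named genes came from a set list, except AL031777.3, CD68 and PTPRC, singled out after their values were seen. Lists covered other histones, stem-loop processing, cleavage and polyadenylation, transcription, decay, chaperones, S phase and squamous, leukocyte, fibroblast and endothelial, and testis germ cell markers. The members, lists and rules were chosen with earlier results of these data known. Intervals are 95% Clopper-Pearson intervals of scaled counts. One gene of the list of other histones is counted in that list and is not reported here by name.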

Additional observations from a re-analysis of the deposited data

How the results depend on the processing

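Scaling, filter and library choice moved sizes more than directions. For hypoxia against normoxia the number of members lower was 1 with the replicate block. That member was H2AC19 (-7.47), whose reads switch with those of its copy H2AC18. The median was 2.01 with upper quartile scaling and with the fit of the compared groups alone, 1.35 with no filter and 2.17 with the stricter filter. Under oxamate, 7 were higher with no filter, 1 with the stricter filter and 2 in DESeq2, and the median was -0.33 with no filter and -1.51 with the stricter filter. With lactate added, 9 were lower with the stricter filter, and the median was -1.44 with upper quartile scaling, -0.92 with the stricter filter and -1.01 with the compared groups alone. Against hypoxia, oxamate with lactate had 0 higher with the stricter filter, DESeq2 or the compared groups alone, and the median was -2.24 with the stricter filter. Leaving out 1 library gave 18 to 23 higher in hypoxia (median 1.73 to 2.06), 4 to 7 higher and 14 to 17 lower under oxamate (-0.92 to -0.59), 1 to 3 higher and 11 to 17 lower after added lactate (-1.85 to -0.91) and 0 to 1 higher and 19 to 22 lower for both agents (-2.20 to -1.61).

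Among values called in either of the fits compared, signs turned in few places. With copies summed H2AC18 was at 0.28 under oxamate, and H4C12 ran from -6.57 to 1.297 for both agents against hypoxia when a lactate library was left out. With upper quartile scaling ERI1 was at -0.17, H1-2 at -0.14 and ZNF473 at -0.013 after added lactate, and CPSF3 at -0.10, LSM11 at -0.045, NASP at -0.064 and TUT7 at -0.0085 for both agents. That scaling moved the median of all genes by 0.11, -0.07, -0.19 and -0.26. The cause was not tested. Over single members, 1722 values kept a call in the same direction or stayed uncalled, 86 lost a call and 28 gained one. Another 3 turned sign with a call in either fit. Sign changes of values that stayed uncalled were not counted.

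As CPM of the library total, H1 summed to 15.5 in normoxia, 76.1 in hypoxia, 30.1 under oxamate and 31.6 after added lactate, H2A to 25.2, 70.9, 37.5 and 18.4, H2B to 54.0, 124.8, 54.5 and 34.4, and H3 to 3.32, 13.7 and 6.62 in the first 3. H4 summed to 32.8 in hypoxia. With RLE factors H1 was 13.2 in normoxia and 35.5 under oxamate, H2A 21.5 and 44.4, and H2B 111.7 in hypoxia and 64.5 under oxamate.

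Same-numbered libraries did not deviate together (correlations from -0.0502 to 0.0118). With the replicate block the tested members were 22 higher and 1 lower, 6 and 16, 3 and 17, and 1 and 21 in the 4 comparisons. The calls gained were those of H2AC19 in all but the last comparison and of H4C11 under oxamate, rows of copies that split reads. Rows of a few counts limit what this depth can show.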

Other observations

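H2B pseudogene rows outside the rule were read in the same libraries. H2BC19P had 72 and 114 counts in normoxia, 499 and 531 in hypoxia, 189 and 157 under oxamate and 89 and 73 after added lactate. H2BC20P had 125 and 103, 479 and 423, 132 and 175, and 62 and 70 counts in the same order. Both were highest in the hypoxia libraries. H4-16, an H4 gene with a separate name, had 7 and 12, 16 and 19, 1 and 3, and 7 and 7 counts.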
